A study of Homo sapiens with 10 samples.

Results

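The comparison described here sets CR-1-31-B against vehicle (DMSO) in an experiment that mapped the RNA held by the translation factor eIF4A. It rests on 6 of the series' 10 libraries, 3 from cells given CR-1-31-B and 3 from cells given DMSO, chosen by their treatment labels. All 6 come from HEK 293T cells, an established human embryonic kidney line, in a strain with FLAG-tagged eIF4A. The cells received DMSO or 20 nM CR-1-31-B for 1 h, after which ultraviolet light (400 mJ/cm2 at 254 nm) fixed proteins to the RNA they touched. The RNA held by the tagged protein was pulled down through its FLAG tag and read by eCLIP, an enhanced form of crosslinking and immunoprecipitation. Which eIF4A paralogue carried the tag, and whether the strain is 1 clone, are not given in the sources used here. Each library is a table of read counts for 39472 gene symbols in 7 classes, which are the mRNA parts CDS, 5' leader and 3'UTR and the groups LINC, ncRNA, Pseudogene and transcript. A symbol in 1 class is called a feature, and 24713 of 276304 features had enough counts to be tested.

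The helicase eIF4A unwinds the 5' leader of an mRNA so that the small ribosomal subunit can load and scan for the start codon. It normally binds RNA briefly and with little preference for sequence. Rocaglates, the compound class to which CR-1-31-B belongs as a synthetic member, clamp eIF4A onto RNA and do so best on runs of the purines A and G, where the stalled helicase can block scanning ribosomes. The comparison therefore asks where on cellular RNA the tagged eIF4A was held after a short exposure to the compound.

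The DMSO libraries held 943310 to 1074588 counts and the CR-1-31-B libraries 915817 to 1610372. All 7 marker genes chosen for HEK 293T were detected, with a summed level of 269 to 338 CPM (counts scaled to a common library total) in DMSO and 228 to 322 CPM with CR-1-31-B. Markers of leukocytes summed to at most 16.8 CPM and of hepatocytes to at most 4.37 CPM in any of the 6 libraries. Fibroblast markers reached 72.6 CPM in DMSO and 58.6 CPM with CR-1-31-B, and endothelial markers 22.3 and 27.3 CPM. CPM are shares of a library, RNA levels were not measured for each treatment, and a change in eIF4A binding therefore cannot be told apart from a change in RNA abundance. CR-1-31-B library 3 stood apart from the other CR-1-31-B libraries in the summed measures below, which are given for each library.

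The share of counts in 5' leaders was higher in CR-1-31-B than in DMSO for every library number. Leaders took 23.4%, 24.1% and 20.7% of all counts in DMSO libraries 1, 2 and 3 and 32.7%, 35.0% and 22.8% in the CR-1-31-B libraries of the same numbers. CR-1-31-B libraries 1 and 2 lay above every DMSO library, while library 3 lay inside the DMSO range. The means were 22.7% ± 1.80 and 30.2% ± 6.49 (SD, n = 3 each). Their difference of 7.43 points was not extreme among relabellings of the libraries (exact two-sided permutation p = 0.3, where 0.1 is the smallest possible, adjusted p = 0.41 over 11 comparisons). Each CR-1-31-B library lay above the DMSO library of its own number, by 9.31, 10.9 and 2.10 percentage points (exact sign-flip permutation p = 0.25, the smallest that 3 pairs allow). Without CR-1-31-B library 3 the mean difference was 11.1 points.

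The 3'UTR share differed in the other direction and depended in part on 1 gene. It was 25.1%, 24.7% and 27.4% in DMSO and 18.4%, 16.7% and 23.7% with CR-1-31-B, so that all 3 CR-1-31-B libraries lay below all 3 DMSO libraries (by -6.12 points on average, with the lowest attainable exact permutation p of 0.1 and an adjusted p = 0.41). The 3'UTR of HINT3, a histidine triad hydrolase gene, alone held 2.64%, 5.43% and 4.01% of all counts in the DMSO libraries and 1.61%, 1.35% and 0.658% in the CR-1-31-B libraries. With that feature removed from the counts the 3'UTR difference was -3.99 points (exact permutation p = 0.3) and only 2 of the 3 CR-1-31-B libraries lay below DMSO. The CDS share differed by 0.26 points (exact permutation p = 0.8). Per count in a CDS there were 0.692 ± 0.065 leader counts in DMSO and 0.906 ± 0.178 with CR-1-31-B (SD, n = 3 each).

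**Figure D1:**
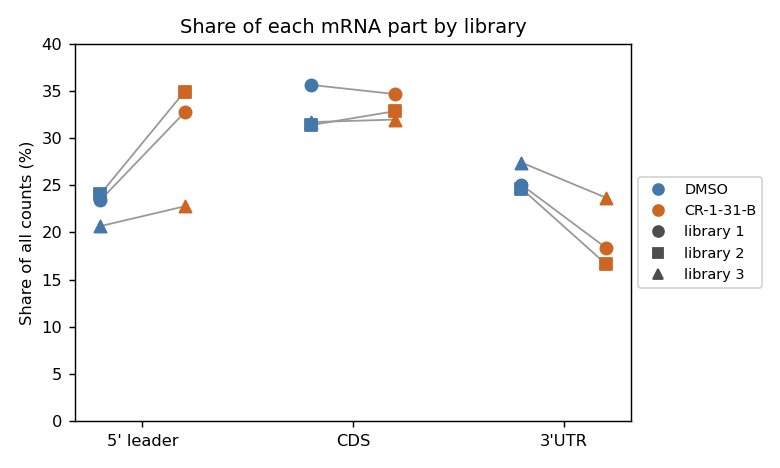
Share of all counts (percent, y axis) in the 5' leader, CDS and 3'UTR classes for each library, with DMSO in blue, CR-1-31-B in orange, 1 marker shape per library number and a grey line joining libraries of the same number. Leader shares of CR-1-31-B libraries 1 and 2 (32.7% and 35.0%) lie above all DMSO libraries, and that of library 3 (22.8%) lies within the DMSO range of 20.7% to 24.1%.

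Single features were tested with edgeR's quasi-likelihood test over the 9 anti-FLAG libraries of the series. The silvestrol libraries entered no contrast, but they entered the filter on low counts, the scaling and the estimate of the spread. With only the 6 compared libraries 22004 features were tested and 99 called. A feature with a Benjamini-Hochberg adjusted p under 0.05 is said to be called. Of 24713 features 72 were called (0.291%), and 71 of them rose (0.287%). The calls held 57 leaders (0.800% of the 7122 tested), 13 CDS (0.155% of 8413) and 2 features of the transcript class, 1 of them higher (0.239% of 419), while edgeR called 0 of 6712 3'UTRs (32 higher and 227 lower at an unadjusted p under 0.05; 5 higher and 3 lower with the block below). In each of the 72 the 3 CR-1-31-B libraries lay entirely on one side of the 3 DMSO libraries. Such a complete gap was found upwards in 8.09% and downwards in 6.57% of all tested features, and in 15.9% and 2.81% of the leaders. Leaders were also split into 4 groups of about equal size by mean CPM over the 6 compared libraries. Of the 57 called, 39 lay in the highest group and 0 in the lowest. This mean includes the CR-1-31-B libraries, so a rise itself moves a leader up. DFFA and FLNC lay in the highest group with DMSO means of only 8.08 and 12.3 CPM.

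The libraries carry the numbers 1 to 3 in both groups, and libraries of the same number deviated together, so the numbers were taken as pairs. With the number as a block edgeR called 365 features (1.48%), 348 higher (1.41%) and 17 lower, among them all 72. The higher calls then held 256 leaders (3.59%) and 84 CDS (0.998%). Library 2 was the highest CR-1-31-B library in 43 of the 57 called leaders and library 3 the lowest in 47. All 57 called leaders were higher in every pair, a direction that their choice from these same libraries favours. Their median log2 differences were 2.17, 2.63 and 1.73 in pairs 1, 2 and 3. For the other 6734 leaders with a known sequence these medians were 0.44, 0.47 and 0.08. The number of calls depended on single libraries. It was 3, 17 and 0 without DMSO libraries 1, 2 and 3, with 1859 features at an unadjusted p under 0.05 in the last case. Fits lacking 1 CR-1-31-B library called 18 features when library 1 was omitted, 1 for library 2 and 226 for library 3. None of the 72 calls held in all 9 fits that left out 1 library. Omitting DMSO 1, 2 or 3 removed 70, 59 or 72 of the calls, and omitting CR-1-31-B 1, 2 or 3 removed 55, 71 or 1.

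Purine stretches from called leaders are shown because rocaglates are known to clamp eIF4A on such runs. The 8 shown first are examples and need not represent all called leaders. Each line gives the longest uninterrupted run of A and G in the leader, in capitals, with the flanking bases in lower case, 5' to 3' on the transcribed strand. They were read from GENCODE 29 transcripts on GRCh38. In POU3F2 the run continued past the capitals to 29 purines.
JUN, chr1:58784257-58784276, minus strand: ggtAGGAGAAAGAAGGGccc
POU3F2, chr6:98834633-98834662, plus strand: agcGAGAAGGAGGGAGAGGAGGAGAAAgag
GNG12, chr1:67833413-67833441, minus strand: agcAAGAGGAGGAGGAGGAGGAGAGGtcg
FLNC, chr7:128830430-128830449, plus strand: cctGGAGGGAGAGAGAGcca
PAFAH1B1, chr17:2593746-2593770, plus strand: gcGAGAAGGAGAAGGAGGGGAGcgc
PPP2CA, chr5:134226028-134226044, minus strand: agcGGAGGAGGAGGcgc
HNRNPD, chr4:82373939-82373954, minus strand: agcGAGGAGGAGGcga
CCND1, chr11:69641295-69641308, plus strand: cccAGGAAGAGccc
All 8 lie within the annotated leader, and in PAFAH1B1 the window opens at the first base of the transcript. For contrast, the longest runs of 1 called leader, IPO7, and of the 4 leaders that were lower with the block, RPL5, TUBA1B, RPL37A and CHCHD10, are shown next.
IPO7, chr11:9384628-9384637, plus strand: tccGGGGcct
RPL5, chr1:92832025-92832035, plus strand: cgcAAGGGctg
TUBA1B, chr12:49131356-49131366, minus strand: gtcGGGGAcgg
RPL37A, chr2:216498408-216498424, plus strand: tgcAGAGGGGGAAAtaa
CHCHD10, chr22:23768035-23768053, minus strand: gacGGGAGAAGGGGGAtag
The called leader of IPO7 had no run above 4 purines, so a long run was not a feature of every called leader. Other called leaders had short runs too, with a longest run of 5 in CFL2 and TRIM11 and 6 in BOLA3, NUDC and BRAP. Of the 57 called leaders 30 had a run of at least 10. Nor were long runs absent from the annotated sequences of lower leaders. There CHCHD10 had a run of 13 purines and RPL37A one of 11, longer than the 10 of HNRNPD and the 8 of CCND1. These windows lie at bases 391 to 409 of a 569-base leader in CHCHD10 and 220 to 236 of a 686-base leader in RPL37A. Whether the leaders used in these cells, or counted by the authors, include them is not known.

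Purine content followed the change across leaders in general. Of the 7122 tested leaders 6791 were matched by symbol to a GENCODE 29 transcript and split into 5 groups of about equal size by the percentage of purines in the leader. In the group with the fewest purines (14.3% to 45.7%) the median log2 fold change was 0.08 and 17 of 1359 leaders (1.25%) were called higher with the block. In the group with the most (56.5% to 95.2%) the median was 0.63 and 86 of 1357 (6.34%) were called higher. Median leader levels were almost the same in these groups, 21.0 and 21.3 CPM, and the median leader length was 224 and 167 bases.

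The gradient was present in each library, including the one that stood apart. From the lowest to the highest purine group the median difference between paired libraries went from 0.20 to 0.70 in pair 1, from 0.14 to 0.81 in pair 2 and from -0.12 to 0.21 in pair 3, on the log2 scale. Measured against the mean of the DMSO libraries, the top group exceeded the bottom group by 0.46, 0.65 and 0.37 in CR-1-31-B libraries 1, 2 and 3 and by 0.02, -0.06 and 0.09 in the DMSO libraries. All 3 CR-1-31-B values lay above all 3 DMSO values (0.494 ± 0.144 against 0.015 ± 0.0745, SD, n = 3 each, exact two-sided permutation p = 0.1, the smallest possible). The DMSO values are centred near 0 by construction, because the reference is the mean of these same libraries. That reference was not recomputed for the relabelled groups, so this p is only a rough guide. The paired differences above do not use it.

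**Figure D2:**
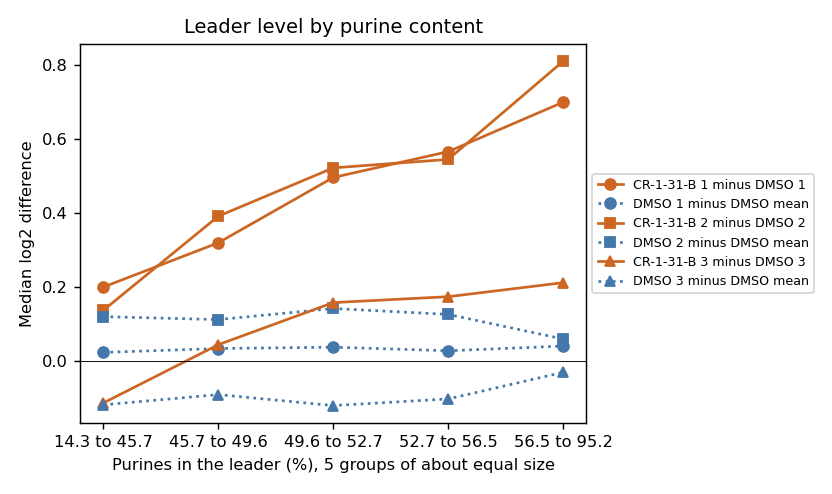
Median log2 difference of leader level (y axis) in 5 groups of leaders of rising purine percentage (x axis), for each CR-1-31-B library paired with its same-numbered DMSO library (orange, solid) and each DMSO library against the DMSO mean (blue, dotted), with 1 marker shape per number. The orange lines climb from 0.20, 0.14 and -0.12 to 0.70, 0.81 and 0.21, while the blue lines differ by 0.02, -0.06 and 0.09 between their ends. The blue lines are centred near 0 by construction, as their reference is their own mean.

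Uninterrupted runs gave the same ordering. Leaders whose longest run was under 6 purines had a median log2 fold change of 0.04 (949 leaders), and those with a run of 13 or more had 0.50 (1240 leaders), although the latter were also longer, with a median length of 433 bases against 110. A run of at least 10 purines occurred in 54.4% of the 252 leaders called higher with the block and with a sequence, and in 40.2% of all 6791. Among the 57 called without the block it occurred in 52.6%. Any of 4 motifs, namely AGAGAG, its shifted and often overlapping form GAGAGA, the repeat GGAGGA or the repeat GAAGAA, lay on the transcribed strand of 56.4% of the block-called leaders and 40.1% of all. Taken singly, AGAGAG lay in 22.2% of the block-called leaders and 12.6% of all, the form GAGAGA in 21.0% and 12.6%, and the repeat GGAGGA in 34.9% and 25.3%. The repeat GAAGAA went the other way, in 8.73% of the block-called leaders and 10.4% of all. The reverse complements of these motifs, which are pyrimidine runs, lay in 30.2% of the block-called leaders and 34.8% of all. Within short leaders alone (2268 with a median of 115 bases), the motif share was 35.7% of 70 block-called leaders and 16.4% of all, and within long leaders it was 76.8% of 82 and 66.0%.

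AP-1 and other immediate early genes, which cells switch on within minutes of a stimulus, included the called leader with the most counts. JUN encodes a subunit of the AP-1 transcription factor. Its leader stood at 372, 641 and 236 CPM in DMSO libraries 1, 2 and 3 and at 1944, 4947 and 2250 CPM with CR-1-31-B. Every CR-1-31-B library lay well above the highest DMSO library, and library 2 was the highest. The log2 fold change was 2.87 (SE 0.45, edgeR adjusted p = 0.00889), while the JUN CDS (1.12, adjusted p = 0.381) and 3'UTR (1.28, adjusted p = 0.125) were not called. With the block the JUN 3'UTR passed (log2 1.24, edgeR adjusted p = 0.0157).

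IER2, a small nuclear regulator of the same response, went from 13.7, 17.0 and 13.7 CPM to 64.1, 201 and 59.1 CPM in its leader (log2 2.86, edgeR adjusted p = 0.0173). DMSO values were close together, and CR-1-31-B library 2 lay far above the other treated libraries. Of 10 AP-1 leaders tested only JUN was called and 9 had a log2 fold change above 0, with a median of 1.15 against 0.35 for all leaders. Among all leaders 0.800% were called, 3.59% were called higher with the block and 67.6% were above 0. The JUNB leader stood at 2.94, 8.49 and 2.29 CPM in DMSO and 23.8, 69.2 and 13.9 CPM with CR-1-31-B. Its log2 fold change of 2.94 was larger than that of JUN but missed the threshold (edgeR adjusted p = 0.0554). It passed with the block (edgeR adjusted p = 0.0178). At those DMSO levels it passed the filter on low counts only through drug-treated libraries. Of 20 leaders of other immediate early genes IER2 and MYC were called, and with the block also GADD45A, IER5 and DUSP1, for stress response and phosphatase proteins. Their CDS had a median of 0.86 against -0.03 for all CDS, with 0 of 20 called by edgeR and 3 (DUSP1, IER2 and ID2) called higher with the block.

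A few leaders of growth and cell cycle genes were called. Cyclin D1, the product of CCND1, is the partner of the kinases that drive cells out of G1. The CCND1 leader held 5.87, 14.9 and 9.16 CPM in DMSO and 68.8, 70.9 and 52.1 CPM with CR-1-31-B. All 3 CR-1-31-B libraries were alike here and far above DMSO (log2 2.68, SE 0.44, edgeR adjusted p = 0.00889). With 6, 14 and 8 DMSO counts this leader needed drug-treated libraries to pass the filter on low counts, which favours such a gap. Its CDS (log2 1.36, adjusted p = 0.344) and its 3'UTR (log2 -0.24, adjusted p = 0.933) were not called. FZR1, an activator of the anaphase-promoting complex that holds cells in G1, went from 15.7, 23.4 and 20.6 CPM to 148, 174 and 51.0 CPM in its leader (log2 2.65, edgeR adjusted p = 0.00893). Library 3 was the lowest of the treated libraries and still above DMSO.

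The leader of the oncogene MYC held 141, 109 and 98.5 CPM in DMSO and 419, 486 and 314 CPM with CR-1-31-B (log2 1.80, SE 0.34, edgeR adjusted p = 0.0183). SLC2A1, which encodes the glucose transporter GLUT1, went from 11.7, 6.37 and 18.3 CPM to 96.5, 60.6 and 85.7 CPM in its leader, with library 3 as high as the other treated libraries (log2 2.73, edgeR adjusted p = 0.0392). Of 23 leaders of oncogenic mRNAs known to depend on eIF4A, these 2 and CCND1 were called. Of the 23, 20 had a log2 fold change above 0, as did 67.6% of all leaders. Their median was 0.49, not far from 0.35 for all leaders. Of 24 leaders of G1 regulators CCND1 and FZR1 were called, and with the block also CDKN1A, CKS1B and CCND2. The shares over all leaders were 0.800% called and 3.59% called higher with the block. In the CDS class of that list 0 of 24 passed with edgeR and 1, the tumour suppressor locus CDKN2A, passed with the block, at 146, 301 and 203 CPM in DMSO and 501, 672 and 554 CPM with CR-1-31-B (log2 1.43, edgeR adjusted p = 0.00651 with the block). Omitting DMSO 1, DMSO 3 or CR-1-31-B 2 removed the call of CCND1 (edgeR adjusted p up to 0.111). Those of MYC, SLC2A1 and FZR1 were removed by omitting DMSO 1, 2 or 3 or CR-1-31-B 1 or 2 (up to 0.201, 0.168 and 0.111).

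The largest fold changes among called features belonged to leaders with few counts in DMSO. SON encodes a large splicing protein of nuclear speckles. Its leader had 0, 0 and 1 counts in the DMSO libraries and 38, 62 and 13 counts with CR-1-31-B (fitted log2 6.06, SE 1.08, edgeR adjusted p = 0.0116). A fitted value of that kind depends on the prior count. With so few DMSO counts this leader could pass the filter on low counts only through drug-treated libraries. The gap between the groups is therefore favoured by the filter and gives the fold change no further weight. The SON CDS, at 150 to 241 CPM in DMSO and 237 to 258 CPM with CR-1-31-B, was not called (log2 0.32, adjusted p = 0.877). POU3F2, a neural transcription factor, went from 4.89, 1.06 and 4.58 CPM to 50.9, 93.4 and 12.7 CPM in its leader (log2 3.86, SE 0.65, edgeR adjusted p = 0.00893). Library 3 rose least but remained above every DMSO library. With DMSO counts of 5, 1 and 4 this leader too passed the filter on low counts only through drug-treated libraries. Its gap is therefore favoured by the filter as well. Among 10 leaders of POU and SOX factors it alone was called (0.800% of all leaders were), 9 were above 0 (67.6% of all leaders) and the median was 1.04.

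Further leaders with a log2 fold change near 3 were those of BOLA3, an iron-sulfur cluster assembly factor (3.39, edgeR adjusted p = 0.0482), DFFA, the inhibitor of the apoptotic nuclease (3.21, adjusted p = 0.00889), C6orf106 (3.05, adjusted p = 0.00889), the zinc finger gene ZNF574 (adjusted p = 0.0117), the endosomal gene RBSN (2.94, adjusted p = 0.0173) and the spindle gene SPDL1 (2.88, adjusted p = 0.0392). The DFFA leader went from 6.85, 11.7 and 5.73 CPM to 62.2, 126 and 39.4 CPM. That of C6orf106 went from 14.7, 7.43 and 9.16 CPM to 58.2, 150 and 53.3 CPM. Both had their highest value in library 2 and no overlap between groups, as in every called feature. The leaders of BOLA3 (7, 0 and 4 DMSO counts) and SPDL1 (6 in each) passed the filter on low counts only through drug-treated libraries. Those of DFFA, C6orf106, ZNF574 and RBSN also needed drug-treated libraries to pass it. The filter thus favours the gaps of all these leaders. Omitting DMSO 1, 2 or 3 or CR-1-31-B 2 removed the calls of SON, POU3F2 and C6orf106 (edgeR adjusted p up to 0.111 each), and BOLA3 was kept in only 2 of the 9 fits that left out 1 library (up to 0.295).

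Of the actin cytoskeleton list, 3 leaders were called. FLNC encodes filamin C, which crosslinks actin filaments, and its leader held 11.7, 14.9 and 10.3 CPM in DMSO and 62.8, 103 and 49.8 CPM with CR-1-31-B (log2 2.54, SE 0.41, edgeR adjusted p = 0.00889). TPM3, a tropomyosin that lines actin filaments, went from 17.6, 22.3 and 13.7 CPM to 108, 109 and 52.1 CPM (log2 2.32, adjusted p = 0.0179). CFL2, the actin-severing cofilin of muscle, went from 3.91, 6.37 and 6.87 CPM to 36.4, 65.7 and 20.9 CPM (log2 2.83, adjusted p = 0.0412). In all 3 leaders library 3 was the lowest treated library without reaching the DMSO range. The CFL2 leader, with 4, 6 and 6 DMSO counts, passed the filter on low counts only through drug-treated libraries. They were the called members among 34 actin cytoskeleton leaders (0.800% of all leaders were called), whose median of 0.28 lay below the 0.35 of all leaders. In the same list 0 of 34 CDS and 0 of 35 3'UTRs were called by edgeR, with or without the block. TRIP6, an adaptor of focal adhesions (log2 2.42, adjusted p = 0.0104), PAK4, a kinase that acts on actin (2.41, adjusted p = 0.0482), and GNG12, a G protein gamma subunit (2.54, adjusted p = 0.00889), were also called in the leader.

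Called leaders included those of phosphatase subunits. PPP2CA, the catalytic subunit of phosphatase PP2A, went from 48.0, 45.6 and 57.3 CPM to 272, 304 and 133 CPM (log2 2.23, edgeR adjusted p = 0.0102). PPP4C, the catalytic subunit of the related PP4, went from 136, 161 and 129 CPM to 589, 654 and 320 CPM (log2 1.87, adjusted p = 0.0175). Both were lowest in library 3 among the treated libraries, and all treated libraries exceeded all DMSO libraries, as in every feature called higher. PAFAH1B1, which encodes the dynein regulator LIS1, had tight DMSO values of 82.2, 90.2 and 96.2 CPM against 378, 547 and 290 CPM in its leader (log2 2.18, SE 0.35, edgeR adjusted p = 0.00889). Its call was removed by omitting DMSO 1, DMSO 3 or CR-1-31-B 2 (adjusted p up to 0.111), and those of PPP2CA and PPP4C also by omitting DMSO 2 or CR-1-31-B 1 (up to 0.111 and 0.194).

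**Figure D3:**
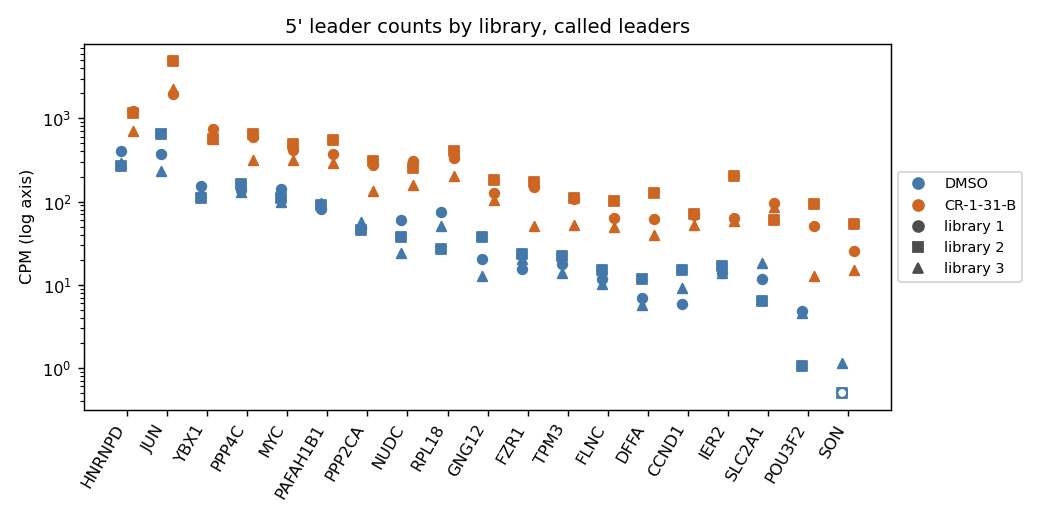
Leader level in CPM (log axis) of 19 called leaders in each library, DMSO in blue and CR-1-31-B in orange, with 1 marker shape per library number. Open symbols drawn at 0.5 stand for a count of 0 (SON, DMSO libraries 1 and 2). In every gene shown, as in every feature called higher, the lowest CR-1-31-B library lies above the highest DMSO library.

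RNA-binding proteins contributed the called leaders with the most counts after JUN. HNRNPD, an RNA-binding protein that acts on AU-rich mRNAs, went from 401, 271 and 292 CPM to 1236, 1148 and 696 CPM in its leader (log2 1.68, SE 0.36, edgeR adjusted p = 0.0475). YBX1, a cold-shock domain protein that packages mRNA, went from 153, 109 and 132 CPM to 738, 569 and 560 CPM (log2 2.24, SE 0.41, edgeR adjusted p = 0.0162). For YBX1 the 3 treated libraries were alike, and the YBX1 CDS stayed uncalled at a log2 fold change of -0.14 (adjusted p = 0.968). Of 34 hnRNP and SR protein leaders HNRNPD was called, and HNRNPA3, SRSF3 and HNRNPU passed with the block (0.800% and 3.59% of all leaders were called higher in these fits). Splicing core proteins outside that list were called in SNRPD2 (log2 2.30, edgeR adjusted p = 0.0482) and SNRNP25 (2.06, adjusted p = 0.0475). Omitting DMSO 1, 2 or 3 or CR-1-31-B 1 or 2 removed the calls of HNRNPD and YBX1, and omitting silvestrol 3 also removed that of HNRNPD (adjusted p up to 0.251 and 0.135).

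Ribosomal protein mRNAs, whose leaders are short and begin with a pyrimidine tract, divided. RPL18 went from 74.4, 26.5 and 51.5 CPM to 332, 402 and 204 CPM in its leader (log2 2.62, edgeR adjusted p = 0.00889) and RPL24 from 47.0, 17.0 and 32.1 CPM to 124, 115 and 119 CPM (log2 1.89, adjusted p = 0.0435). Over the 43 large-subunit leaders these were the only calls (0.800% of all leaders were called), and the median was -0.23. With the block RPL41 was also higher (log2 1.78, edgeR adjusted p = 0.00198 with the block), and RPL5 and RPL37A were lower. The RPL5 leader stood at 472, 402 and 376 CPM in DMSO and 223, 101 and 131 CPM with CR-1-31-B. All 3 treated libraries lay below all 3 DMSO libraries (log2 -1.51, edgeR adjusted p = 0.00291 with the block, and -1.45 and 0.0743 without it). Such a downward gap was found in 2.81% of all leaders. Small-subunit leaders had a median of -0.10, with 0 of 32 called by edgeR and RPS29 higher with the block. Processed pseudogenes copy many of these mRNAs, and how shared reads were counted is not given in the sources used here. Across all leaders, the 206 whose GENCODE 29 sequence began with C and 4 further pyrimidines had a median log2 fold change of 0.18, against 0.37 for the other 6585.

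**Figure D4:**
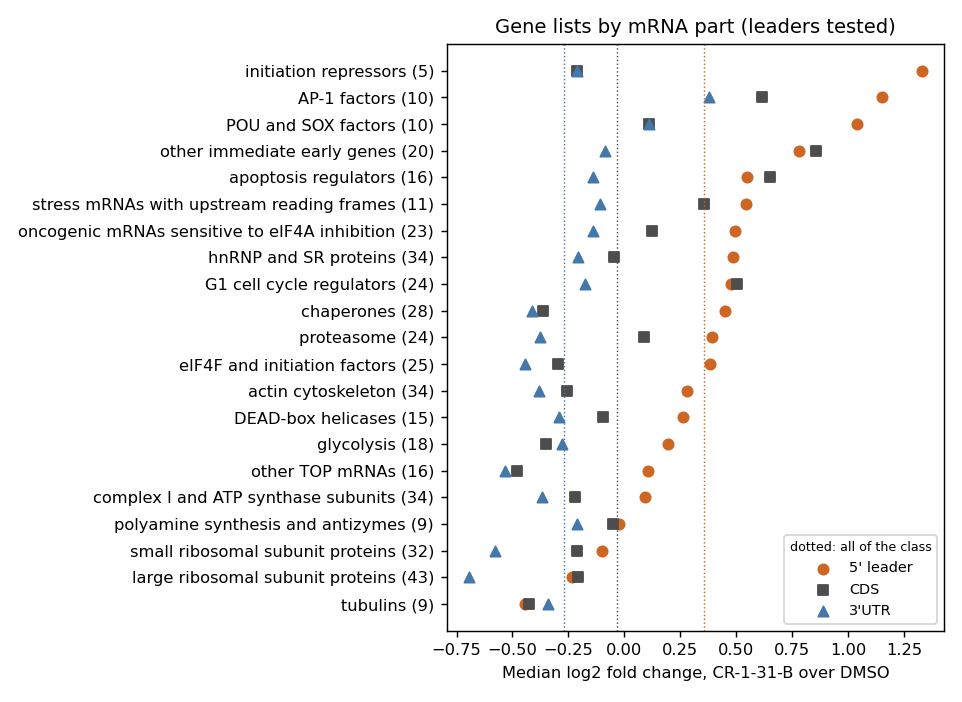
Median log2 fold change (x axis) of 21 gene lists (y axis, with the number of leaders tested) in leaders (orange circles), CDS (grey squares) and 3'UTRs (blue triangles), beside the median of all features of each class (dotted lines). Leader medians run from -0.45 for tubulins to 1.33 for initiation repressors.

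Among factors of translation itself, the leaders of repressors stood highest. EIF4EBP1 and EIF4EBP2 encode proteins that sequester the cap-binding factor eIF4E, and PAIP2 a protein that displaces poly(A)-binding protein. The EIF4EBP2 leader held 78.3, 157 and 98.5 CPM in DMSO and 325, 405 and 160 CPM with CR-1-31-B, with library 3 only just above the highest DMSO library. The EIF4EBP1 leader held 8.81, 6.37 and 6.87 CPM and then 56.9, 50.2 and 11.6 CPM. It passed the filter on low counts only through drug-treated libraries. By edgeR 0 of the 5 repressor leaders tested were called, and with the block EIF4EBP2 (adjusted p = 0.0202), EIF4EBP1 (0.0218) and PAIP2 (0.0267) were. With the block 3.59% of all leaders were called higher. All 5 had a log2 fold change above 0, as did 67.6% of all leaders, and the median of the 5 was 1.33. Of 25 leaders of eIF4F and other initiation factors 0 were called by edgeR and EIF3M and EIF5B passed with the block, and their median of 0.38 was close to that of all leaders.

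Chaperone leaders gave 6 calls with the block and 0 of 28 without it by edgeR, where 3.59% and 0.800% of all leaders were called higher. STIP1, which links HSP70 to HSP90, went from 44.1, 26.5 and 19.5 CPM to 120, 97.7 and 82.3 CPM (log2 1.76, edgeR adjusted p = 0.00651 with the block). The others were the co-chaperones DNAJB6, DNAJA1 and PTGES3, the chaperonin subunit CCT7 and the heat shock gene HSPA1B. Proteasome leaders gave 3 such calls of 24, namely PSMC4, PSMD1 and PSMA7. The leader of PSMC4 had no count in any DMSO library and 8.11 to 21.6 CPM with CR-1-31-B, so it passed the filter only through drug-treated libraries. Tubulin leaders lay at the other end, with a median of -0.45 over 9, and TUBA1B was lower with the block: 356, 313 and 189 CPM in DMSO against 179, 141 and 83.4 CPM (log2 -1.10, edgeR adjusted p = 0.0261 with the block). Of 34 leaders of complex I and ATP synthase subunits and of 9 of polyamine synthesis 0 were called in either fit by edgeR.

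Some further called leaders, which belong to none of the lists, are given by what they encode. The subunits of the chromatin assembly and remodelling machinery CHAF1A (log2 2.29, edgeR adjusted p = 0.00893) and CHD4 (1.79, adjusted p = 0.042), the methyltransferase NSD1 (2.07, adjusted p = 0.0392) and the elongation complex subunit CTR9 (2.37, adjusted p = 0.0482) rose in the leader. CAND1, which exchanges the substrate receptors of cullin ligases, went from 65.6, 125 and 59.5 CPM to 263, 510 and 220 CPM (log2 1.99, adjusted p = 0.0345). The ubiquitin ligase RLIM went from 37.2, 34.0 and 10.3 CPM to 96.5, 175 and 88.1 CPM (log2 2.13, adjusted p = 0.0404). In both leaders library 2 was highest and the groups did not overlap, as in every called feature. Omitting DMSO 1, DMSO 3, CR-1-31-B 1 or CR-1-31-B 2 removed the calls of CAND1 and RLIM, and omitting DMSO 2 or silvestrol 3 also removed that of RLIM (adjusted p up to 0.271 and 0.282).

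Outside leaders the calls were 13 CDS and 2 transcripts. The CDS of ZNF263, a zinc finger transcription factor, held 17.6, 19.1 and 18.3 CPM in DMSO and 98.5, 262 and 102 CPM with CR-1-31-B (log2 3.06, SE 0.46, edgeR adjusted p = 0.00889). Its leader was not called (log2 0.57, adjusted p = 0.817). The test of the CDS against the rest of its own gene did not pass either (relative log2 0.76, diffSpliceDGE adjusted p = 0.9999). RPL41, the smallest ribosomal protein, went from 181, 86.0 and 108 CPM to 656, 481 and 649 CPM in its CDS (log2 2.25, edgeR adjusted p = 0.0173), with all treated libraries alike. PPP1R14B, a phosphatase inhibitor, went from 63.6, 81.7 and 66.4 CPM to 442, 385 and 263 CPM in its CDS (log2 2.36, adjusted p = 0.00893), and its leader passed with the block (log2 1.20, adjusted p = 0.0152).

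The other called CDS were those of the proteasome and repair protein SEM1 (log2 2.71), the transcriptional regulator EID1 (2.60), the acetyltransferase subunit NAA30 (2.56), the MYC-network repressor MXD4 (2.23), the ubiquitin ligase adaptor KLHL11 (2.21), the splicing factor USP39 (2.12), and LZTS2 (2.40), LRRC58 (2.13), CRLF3 (2.10) and PLEKHJ1 (1.90). Of the 12 called CDS whose gene had a tested leader, 11 leaders had a log2 fold change above 0, against 67.6% of all leaders. The median of the 12 was 1.07, and 0 were called by edgeR. CNIH3, an AMPA receptor auxiliary protein, was called in the transcript class, at 19.6, 20.2 and 22.9 CPM in DMSO and 177, 392 and 103 CPM with CR-1-31-B (log2 3.42, SE 0.46, edgeR adjusted p = 0.00386). The DMSO libraries were nearly equal and the treated ones spread widely above them. This call was kept in 8 of the 9 fits that left out 1 library (adjusted p = 0.0673 without DMSO library 3), and ZNF263 in 6 (up to 0.111). What the transcript class holds beyond its name is not given in the sources used here.

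Each leader was also compared with the coding part of its own gene. Of the 57 called leaders 50 had a tested CDS, and in all 50 the leader changed more than the CDS, a direction that the choice of called leaders favours. The median CDS log2 fold change in these genes was 0.47, with 38 of 50 above 0 (48.0% of all tested CDS were) and 0 called by edgeR. The 3'UTRs of 44 of them had a median of -0.15 and 17 were above 0, against 29.6% of all tested 3'UTRs. Over all 5537 genes with both parts tested, without selection, the leader minus CDS difference had a median of 0.38 and was positive in 65.9%. Between paired libraries these medians were 0.50 in CR-1-31-B library 1, 0.48 in library 2 and 0.04 in library 3. The genome-wide shift within genes was thus carried by libraries 1 and 2. In the 3617 genes with all 3 parts tested the leader exceeded the 3'UTR by a median of 0.66.

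**Figure D5:**
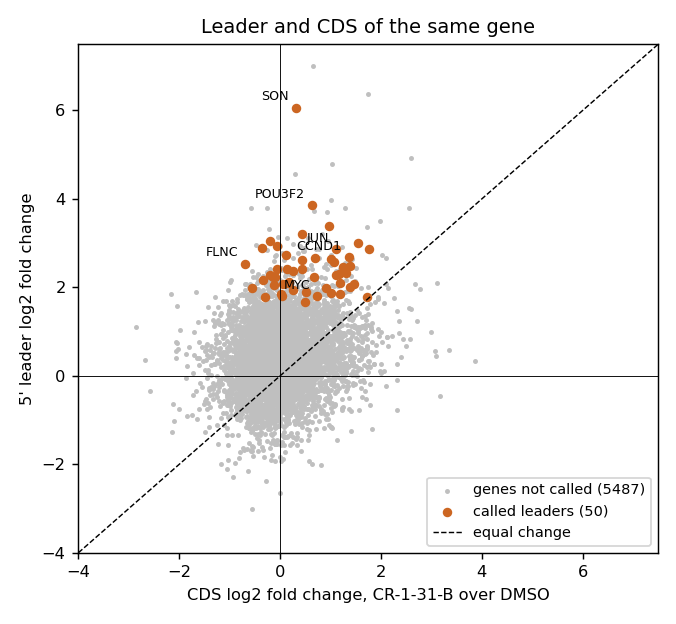
Log2 fold change of the leader (y axis) against that of the CDS (x axis) for 5537 genes, with the 50 called leaders in orange, all other genes in grey and a dashed line of equal change. All 50 orange points lie above the dashed line, with the SON leader at 6.06 and its CDS at 0.32.

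Tests of the leader against the rest of its gene passed in few genes. edgeR's diffSpliceDGE, which compares a part with the overall change of its gene and so understates a leader that dominates it, called 4 of 18667 mRNA parts (0.0214%), which were all leaders (0.0649% of 6160) and all higher: SON (relative log2 3.97, adjusted p = 0.00501), HINT3 (2.97, adjusted p = 0.00294), DFFA (1.82, adjusted p = 0.0379) and FLNC (1.64, adjusted p = 0.0083). With the block it called 11. A limma test of the log2 ratio of leader to CDS plus 3'UTR counts, added after the data were seen, called 15 of 6520 genes (0.230%), and 71 (1.09%) with the block, all in favour of the leader. With only the 6 libraries compared it called 2.

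PAFAH1B1 and YBX1 had the lowest adjusted p in that ratio test. For PAFAH1B1 the log2 ratio of leader to the rest was 0.02, 0.29 and 0.32 in DMSO libraries 1, 2 and 3 and 2.60, 3.31 and 2.26 with CR-1-31-B (difference 2.51, SE 0.39, limma adjusted p = 0.00446). Its CDS, at 17.6, 34.0 and 27.5 CPM in DMSO and 23.1, 17.3 and 22.0 CPM with CR-1-31-B, overlapped between groups. For YBX1 the log2 ratio was -0.96, -0.86 and -1.71 in DMSO and 1.38, 1.23 and 0.79 with CR-1-31-B (difference 2.31, SE 0.36, limma adjusted p = 0.00446). In both genes the ratio was higher in every CR-1-31-B library than in any DMSO library.

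The ratio also passed in genes whose leader alone did not. FTH1, the ferritin heavy chain whose leader carries the iron-responsive element, had 425, 451 and 302 CPM in its leader in DMSO and 1111, 1157 and 730 CPM with CR-1-31-B (log2 1.35, edgeR adjusted p = 0.0807; ratio difference 1.93, limma adjusted p = 0.0118). NONO, a paraspeckle protein, had 132, 115 and 99.6 CPM and then 405, 312 and 258 CPM (log2 1.49, edgeR adjusted p = 0.0931, and ratio difference 1.98, limma adjusted p = 0.0187). The 3'UTR had a log2 fold change of -1.62 in FTH1 and -0.76 in NONO, neither called, so these ratios reflect both parts. Neither gene's groups overlapped in the leader, an upward gap found in 15.9% of all tested leaders. JUN passed as well (ratio difference 1.62, limma adjusted p = 0.0374), as did C6orf106, CAND1, RPL18, RC3H2, PCDH9, STIP1, GADD45A, DFFA and FLNC. HINT3 passed with a difference of 3.85 (adjusted p = 0.0118) while its 3'UTR decreased, so that this ratio reflects both parts. The HINT3 leader had 3 to 6 counts in each DMSO library and 11 to 49 with CR-1-31-B. It passed the filter on low counts only through drug-treated libraries.

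Decreases were few and mostly visible with the block. The KRT32 transcript, named for a hair keratin gene, was the 1 feature called lower (0.00405%). It stood at 1178, 1214 and 1214 CPM in DMSO and 474, 312 and 305 CPM with CR-1-31-B, against 14.1 CPM in the input library. DMSO libraries were almost identical and no treated library came near them (log2 -1.72, SE 0.36, edgeR adjusted p = 0.0415), although omitting any of the 6 compared libraries removed the call (adjusted p up to 0.295). The HINT3 3'UTR, the feature with the most counts of the mRNA classes in DMSO, went from 27688, 61907 and 43277 CPM to 17134, 14912 and 6978 CPM, against 268 CPM in the input. It missed the threshold (log2 -1.77, edgeR adjusted p = 0.0513) and passed with the block (-1.81, adjusted p = 0.000437).

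Of the 17 features lower with the block (0.0688%), 4 were leaders, 6 CDS and 3 3'UTRs. Several belong to abundant mRNAs of protein synthesis and metabolism. The CDS of EEF1A1, the factor that brings aminoacyl-tRNA to the ribosome, held 1035, 981 and 853 CPM in DMSO and 642, 387 and 534 CPM with CR-1-31-B (log2 -0.90, edgeR adjusted p = 0.0456 with the block). The CDS of the glycolytic enzyme ENO1 held 309, 160 and 276 CPM and then 132, 89.1 and 103 CPM (log2 -1.16, adjusted p = 0.0218 with the block). In both the treated libraries all lay below the DMSO libraries, as in 7.38% of all tested CDS. The CDS of the constitutive HSP70 chaperone HSPA8 (log2 -1.04, adjusted p = 0.043 with the block) and the 3'UTR of the elongation factor EEF2 (-1.13, adjusted p = 0.0286 with the block) were also lower. The largest were the PDLIM1 CDS (-2.41, adjusted p = 0.0461 with the block) and the SIAE 3'UTR (-2.15, adjusted p = 0.00434 with the block).

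The most abundant leaders in DMSO were not those that changed most. WDR74 had the highest leader level in DMSO, at 2343, 3055 and 1531 CPM, and 1660, 1520 and 1601 CPM with CR-1-31-B, overlapping ranges (log2 -0.54, edgeR adjusted p = 0.768). Its level in the input library was 5926 CPM, above every DMSO library, so a high level here does not mark enrichment in the pulldown. The leaders of SET, GNAS, OR1F1 and NDUFS7 had 57.9, 71.6, 26.0 and 62.9 CPM in the input, below their DMSO levels. SET, a histone chaperone and PP2A inhibitor, had 699, 845 and 969 CPM and then 2366, 2463 and 1513 CPM, without overlap (15.9% of all leaders had such an upward gap). Its leader missed the threshold (log2 1.34, edgeR adjusted p = 0.0932) and passed with the block (1.32, adjusted p = 0.00631). GNAS, OR1F1 and NDUFS7, the other leaders among the 5 highest in DMSO, had log2 fold changes of -0.19, -0.28 and 0.23, and edgeR did not call them in either fit. In the CDS class RPS2 was highest, at a mean of 2641 CPM in DMSO and 1640 CPM with CR-1-31-B (log2 -0.69, adjusted p = 0.535), followed by EEF2, EEF1A1, SRRM2 and FASN.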

How the data were processed

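The authors deposited 1 table of whole-number read counts per library, by gene symbol and class, per the file headers. Per the submitters' processing notes, cutadapt and Bowtie 1.1 served for trimming and alignment. Genome build, annotation, strand use, handling of PCR duplicates and counting rule are not given in the sources used here, so near-identical, overlapping and antisense genes are uncertain. Each table held 1 blank line, which was left out. Shares of a library and CPM cover counting error only and grow less precise as counts fall.

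The 9 anti-FLAG libraries were fitted with edgeR 4.0.16 in R 4.3.3 (filterByExpr by group, TMM factors, quasi-likelihood test, Benjamini-Hochberg adjustment over all tested features). The labels do not say whether library numbers mark separate cultures, so p-values measure only the spread between these libraries. Deviations of log2 CPM (prior count 2) from group means correlated at 0.181, 0.190 and 0.227 between same-numbered DMSO and CR-1-31-B libraries. Other library pairs had -0.146 to -0.0417. Deviations from a group mean cancel within the group, so positive same-number values push the others negative, and these add no separate support. The numbers were used as pairs in a second fit because of the same-number values. This pairing comes from the data, not from the labels. No replicates repeated the same counts. The ratio test used limma 3.58.1, with DESeq2 1.42.0 as an alternative count test. The count fit was tested on simulated data.

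Leader sequences came from the GENCODE 29 basic transcript of each symbol with the best APPRIS rank, then the longest. Whether the authors' leaders have the same ends is not known. The motifs were searched by exact match.

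The compared libraries and gene lists were chosen with earlier results of these data known. Named features were the 20 largest calls, all calls outside leaders or lower, the 5 called leaders with the most counts, called list members with their CDS and 3'UTR, the 10 largest within-gene calls, the 5 largest decreases with the block, and the 5 highest features in DMSO of each mRNA class. Other named features were chosen after their values were seen. Some features that met these rules are not reported here.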

Additional observations from a re-analysis of the deposited data

How the results depend on the processing

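Leaders made up most of the higher calls under every alternative that kept all libraries of the 2 groups. The count of 72 called features was 365 with the replicate block, 331 with the block and only the 6 libraries, 225 with no filter on low counts and 335 with DESeq2. It was 62 to 103 under the other settings, including limma voom (62, of which 44 were among the 72) and settings added after the data were seen. With 1 library left out it ranged from 0 to 226, and the cause was not tested.

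The 4 leaders called against their own gene by diffSpliceDGE became 11 with the replicate block, 15 with the limma ratio and 71 with that ratio and the replicate block, and ranged from 0 to 5 without 1 library. The leader minus CDS median ranged from 0.24 to 0.51, the leader share difference from 5.03 to 11.1 points and the 3'UTR share difference from -8.18 to -4.67 points without 1 library, with no change of sign.

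The CDS share difference of 0.26 points had no stable sign. It was -0.403 with the 3 mRNA parts only, -1.25 without the 10 largest features, -0.696 without the HINT3 3'UTR, and -0.506 to 1.63 without 1 library. Among uncalled features, the NDUFS7 leader had -0.16 with the replicate block, -0.10 with the block and 6 libraries, -0.11 with limma voom and -1.19 to 1.06 without 1 library. Without 1 library the log2 fold change ranged from -0.33 to 0.22 for the GNAS leader, -1.504 to 0.51 for the OR1F1 leader, -0.49 to 0.15 for the CCND1 3'UTR and -0.35 to 0.28 for the YBX1 CDS. No called feature changed sign. Low counts limit the lower 2 of the 4 leader groups by mean CPM over the 6 compared libraries, in which 1 leader was called.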

Other observations

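Non-coding RNAs were recovered in both groups with little difference. Of 1733 ncRNA features tested edgeR called 0, with 21 higher and 35 lower at an unadjusted p under 0.05, and the median log2 fold change was -0.10. RMRP, the RNA of the mitochondrial RNA processing RNase and the ncRNA with the largest share, took 2.30%, 2.91% and 5.77% of all counts in DMSO libraries 1, 2 and 3 and 2.43%, 1.46% and 5.03% in the CR-1-31-B libraries of the same numbers. Library 3 was the highest in both groups. The log2 fold change of RMRP was -0.33 (edgeR adjusted p = 0.905). RNU12, the small nuclear RNA of the minor spliceosome, had 0.15 (adjusted p = 0.969), and RN7SK, which holds the elongation factor P-TEFb in an inactive complex, had -0.53 (adjusted p = 0.768). With the block edgeR called the small nucleolar RNA SNORA75 higher (log2 1.59, adjusted p = 0.0243) and LOC105371692 (-1.20, adjusted p = 0.024) and LOC105379574 (-0.95, adjusted p = 0.0365) lower. Of 133 LINC features LINC01783 was lower with the block, at a mean of 4054 CPM in DMSO and 1607 CPM with CR-1-31-B (adjusted p = 0.0403). Of 181 pseudogenes LOC93622 was higher (log2 1.53, adjusted p = 0.00903 with the block).

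Among 3'UTRs the 5 higher with the block were those of JUN (log2 1.24), SOX4 (1.29), NUDCD3 (1.33), ZNF503 (1.36) and TRIM11 (1.62). SOX4, a developmental transcription factor, had 64.6, 131 and 58.4 CPM in its 3'UTR in DMSO and 140, 373 and 133 CPM with CR-1-31-B, with library 2 highest in both groups. These features were chosen after their values were seen.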
